A study of Mus musculus with 21 samples.

Results

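The change in lung gene expression between 3 and 6 weeks after bleomycin was measured in C3H/HeJ mice. The 2 arrays labelled C3H/HeJ 6 weeks were set against the 2 labelled C3H/HeJ 3 weeks, 4 of the 21 Affymetrix arrays of a study of 3 mouse strains. The labels alone decided which arrays entered. Each array held total RNA of the whole right lung, pooled over several mice. At each stage 1 pool came from males given a bleomycin dose of 100 mg/kg and 1 from females given 125 mg/kg, in both cases by osmotic minipump, a small implanted device that releases a drug slowly. Sex and dose therefore cannot be told apart. The p-values measure the spread between pools within the groups of all 21 arrays, after 1 sex effect common to all groups. These arrays cover 3 strains, C3H/HeJ, A/J and C57BL/6. Most groups held 1 male and 1 female pool, so this spread includes how the difference between the sexes varied from group to group. The C3H/HeJ controls were 1 male and 1 female pool. The A/J comparison used below had 4 pools at 3 weeks (males at 80 and 100 mg/kg, females at 100 and 125 mg/kg) and 2 pools at 6 weeks (males at 100 and females at 125 mg/kg). The C57BL/6 pools were 2 controls, 2 at 3 weeks, 1 at 6 weeks (female) and 2 labelled sick. Treated C57BL/6 males had 100 and females 125 mg/kg. The controls' treatment and the ages of the mice were not given in the sources used here.

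Bleomycin, used against tumours, cuts DNA and is toxic to the lung. Lung injury is followed by inflammation, with recruited monocytes, macrophages and neutrophils, by division of repairing cells, and by deposition of collagen and other matrix proteins that can end in fibrosis. In mice the inflammation usually fades earlier than the scar. Macrophages take up debris through scavenger receptors, complement proteins tag it for removal, and p53 answers DNA breaks by switching on genes that halt the cell cycle. Whole lung RNA mixes all of these cells, so fewer cells of a type and less RNA per cell cannot be told apart.

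Signals were brought to 1 distribution over all arrays (quantile normalization) and are given as log2 of the signal plus 16; a difference of 1 is 2-fold, and small signals are pulled together by the added 16. A gene was called when its limma p-value, adjusted over the 9079 genes tested (Benjamini-Hochberg), was under 0.05. The arrays carried the RNA of lung: the 7 lung markers, such as the surfactant gene Sftpc, the club cell gene Scgb1a1 and the endothelial gene Cdh5, lay at a log2 signal of 9.68 or more on all 6 C3H/HeJ arrays, and male and female genes went with the labelled sex, although the female transcript Xist was at 8.73 in the male 3 week pool, against 7.16 and 7.17 in the other male pools and 10.56 to 11.91 in the female pools. The tested heart muscle genes were also present, since Myh6 lay between 7.46 and 8.87. Deposited array medians were 61.6 and 98.8 at 3 weeks and 71.4 and 107 at 6 weeks, for males and females in turn. The Gapdh control probe sets gave a 3′ to 5′ signal ratio, a sign of RNA degradation when high, of 0.821 and 0.829 at 3 weeks and 1.07 and 2.08 at 6 weeks, so it moved with the stage. In the controls it was 1.04 and 0.917.

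Between 3 and 6 weeks 12 genes fell (0.132% of the genes tested) and 5 rose (0.0551%). Of these 17 genes 11 differed by more than 2-fold. Among the genes that fell were the acute phase proteins Saa3 and Lcn2, the macrophage genes Retnla, Marco and C1qa, the chemokine Ccl9 and the complement receptor C3ar1, beside the cell cycle genes Rrm2 and Pttg1 and the p53 target Ccng1. At an unadjusted limma p under 0.05 there were 774 higher genes (8.53%) and 470 lower genes (5.18%), where 454 in both directions together would pass by chance. The median change of all genes was 0.05 in log2.

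Lcn2 had the smallest p of all genes; it encodes lipocalin 2, which binds bacterial iron carriers and is released by neutrophils and injured epithelium. Its log2 signal was 11.43 and 11.36 in the male and female pools at 3 weeks, 9.75 and 9.69 at 6 weeks, and 9.25 and 9.09 in the controls. Both 3 week pools stood far above both 6 week pools, and the sexes nearly coincided at each stage. Lcn2 fell by 1.67 on the log2 scale (SE 0.13, a factor of 3.19, limma adjusted p = 4.51e-06).

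Saa3, an acute phase serum amyloid made locally by macrophages and epithelium, gave the largest fall of any gene tested. Its signal was 9.11 and 8.91 at 3 weeks, 7.06 and 6.76 at 6 weeks, and 6.49 and 6.30 in the controls. The 6 week pools lay between the others. Saa3 fell by 2.1 (SE 0.32, a factor of 4.28, limma adjusted p = 0.00842).

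Among macrophage genes, Retnla, a secreted protein typical of macrophages stimulated by IL-4 and IL-13 and also made by airway epithelium, was at 11.47 and 11.66 at 3 weeks and at 9.62 and 9.85 at 6 weeks. The male control, at 9.81, lay between the 6 week pools, and the female control, at 9.52, just below them. Retnla fell by 1.83 (SE 0.23, adjusted p = 0.00103). Marco, a scavenger receptor of alveolar macrophages, was at 7.90 and 7.77 at 3 weeks, 5.96 and 6.54 at 6 weeks, and 5.74 and 6.70 in the controls. The stages did not overlap, and the female pools of the controls and of 6 weeks were both above the male ones. It fell by 1.59 (SE 0.24, adjusted p = 0.00842). C1qa, a chain of the complement starter C1q that tissue macrophages make, was at 10.42 and 10.31 at 3 weeks and at 9.50 and 8.96 at 6 weeks, with the controls at 8.80 and 9.0. The female 6 week pool thus lay within the controls and the male pool above them, and it fell by 1.13 (SE 0.21, adjusted p = 0.0406).

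Ccl9, a chemokine that attracts cells carrying Ccr1, was at 9.38 and 9.30 at 3 weeks and at 8.01 and 8.21 at 6 weeks, with the controls at 7.55 and 7.80. It fell by 1.23 on the log2 scale (SE 0.14, limma adjusted p = 0.000367), the second smallest p of all genes. C3ar1, the receptor for the complement fragment C3a on myeloid cells, was at 8.14 and 8.20 at 3 weeks and at 7.18 and 6.86 at 6 weeks, with the controls at 6.33 and 6.72. Both 6 week pools of these genes were above both controls. C3ar1 fell by 1.15 (SE 0.19, adjusted p = 0.022).

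Of the genes tied to division and DNA damage, Rrm2, the regulated subunit of ribonucleotide reductase, which makes the building blocks of DNA, was at 8.01 and 8.07 at 3 weeks. At 6 weeks it was at 6.57 and 7.15, against 6.57 and 6.98 in the controls, and it fell by 1.18 (SE 0.21, limma adjusted p = 0.0335). Ccng1, a cyclin induced by p53, was at 9.60 and 10.08 at 3 weeks and at 8.47 and 8.96 at 6 weeks, with the controls at 8.51 and 8.46. It fell by 1.12 (SE 0.21, adjusted p = 0.0406), and here the female pool was higher than the male one at both stages. Pttg1, the securin that keeps sister chromatids from separating before anaphase, was at 10.10 and 9.73 at 3 weeks and at 9.08 and 9.23 at 6 weeks, with the controls at 8.91 and 8.92. It fell by 0.76 (SE 0.14, adjusted p = 0.0406), the least of the 12 genes.

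The remaining falls were in Tgm3 and D17H6S56E-5. Tgm3, a transglutaminase that crosslinks proteins of stratified epithelia, was at 6.95 and 6.62 at 3 weeks, 4.93 and 4.85 at 6 weeks, and 6.13 and 6.59 in the controls. It fell by 1.90 (SE 0.36, limma adjusted p = 0.0406), and of the 12 genes that fell it was the one whose 6 week pools both lay clearly below both controls, although that difference from control, −1.48, did not pass (SE 0.36, adjusted p = 0.36). D17H6S56E-5, whose symbol is the array's, was at 9.89 and 9.77 at 3 weeks and at 8.62 and 9.05 at 6 weeks, and fell by 1.0 (SE 0.16, adjusted p = 0.0101). For the 6 called genes with further probe sets (Ccl9, Rrm2, C3ar1, Ccng1, D17H6S56E-5 and Pttg1) every other set was also lower at 6 weeks, by −0.74 to −1.50.

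The 5 genes that rose were each below both controls in both 3 week pools. They were called for 3 week pools lower than the 6 week pools, which favours this position in advance. Its share over all genes was not counted. Lat, the adaptor that carries the T cell receptor signal onward, was at 5.05 and 6.11 at 3 weeks, 6.68 and 7.08 at 6 weeks, and 6.90 and 6.61 in the controls. The 3 week pools were the lowest and differed between themselves by more than the 6 week pools and the controls did. Lat rose by 1.30 on the log2 scale (SE 0.24, a factor of 2.46, limma adjusted p = 0.0406). Prickle1, a planar cell polarity protein, was at 8.43 and 8.26 at 3 weeks, 9.12 and 9.20 at 6 weeks, and 9.51 and 9.33 in the controls, and rose by 0.82 (SE 0.15, adjusted p = 0.0372). Slc4a5, a sodium bicarbonate cotransporter, was at 7.37 and 7.14 at 3 weeks and at 8.22 and 8.20 at 6 weeks, a rise of 0.96 (SE 0.19, adjusted p = 0.0462). For Prickle1 both 6 week pools were below both controls, and for Slc4a5 they were above them (7.78 and 8.16). Ddrgk1, which takes part in protein modification by UFM1, rose by 0.78 (SE 0.15, adjusted p = 0.0462), and Ccdc84 by 0.95 (SE 0.19, adjusted p = 0.049). Of the genes that were higher but did not pass, those of smallest p were Ermp1 at 0.66 (adjusted p = 0.058), the cell cycle inhibitor Cdkn1c at 1.01 (adjusted p = 0.058) and Fndc3a at 0.83 (adjusted p = 0.0595); genes on the lower side with a p in this range, such as Birc5 and Col1a2, are given with their lists.

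**Figure D1:**
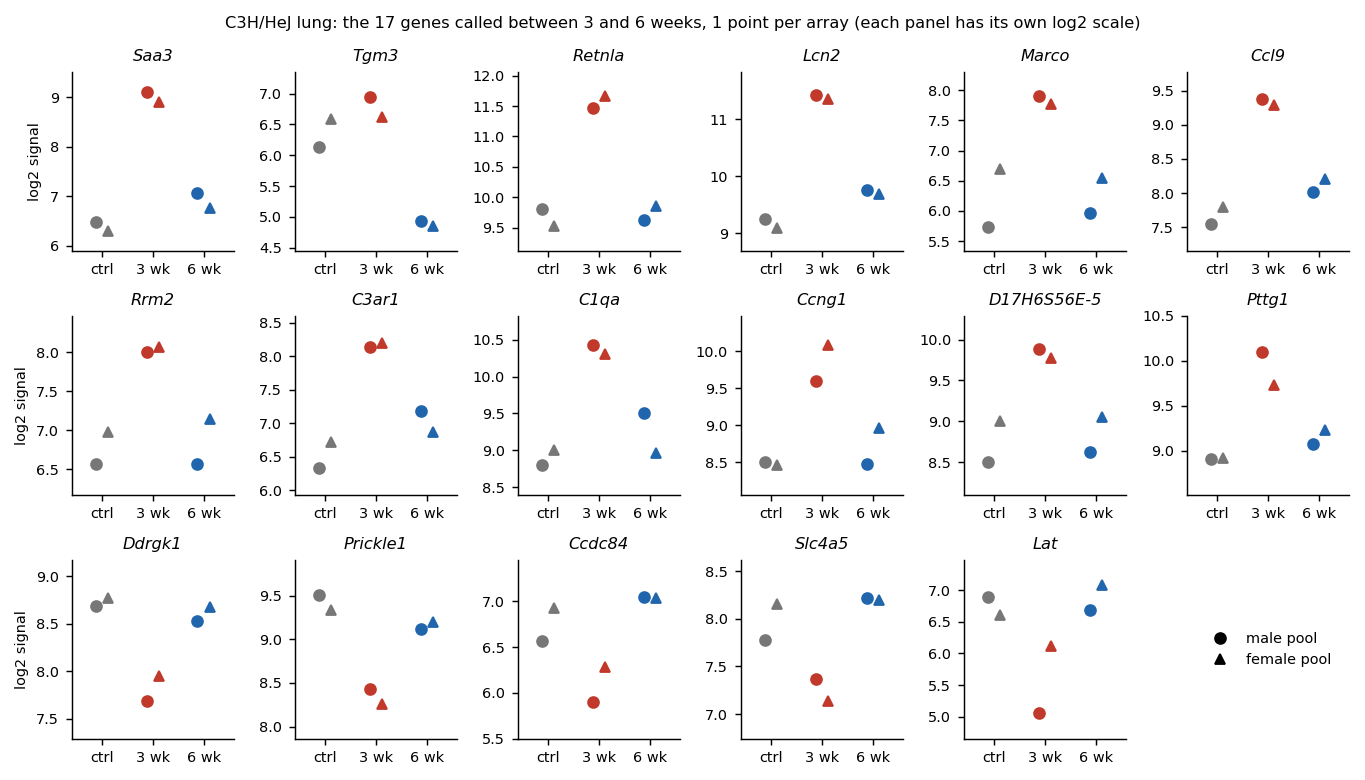
Log2 signal (y axis, a scale of its own in each panel) of the 17 called genes on the 6 C3H/HeJ arrays, by group (x axis: control in grey, 3 weeks in red, 6 weeks in blue); circles are male and triangles female pools. In every panel the 3 week and 6 week points are apart, and Lcn2 goes from 11.43 and 11.36 to 9.75 and 9.69.

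On all 4 arrays the 2 stages did not overlap for any of the 17 genes. Over all genes the pools of the stages were apart with 6 weeks higher in 24.4% and with 6 weeks lower in 15.5%, so a lack of overlap alone was common. The calls depended on single arrays. Without the male 3 week array 43 genes were called, without the female 3 week array 23, without the male 6 week array 26 and without the female 6 week array 8; of the 17 genes 7, 9, 7 and 6 were among them. Lcn2, Ccl9 and Retnla were called in each of these fits. With the Gapdh ratio as a covariate 6 genes were called, and of the 17 only Lcn2 and Ccl9. With the deposited scaling the median of all genes was 0.28, and 3 genes were called higher and 4 lower. Of the 17 genes 4 were among them, all falls. None of the 5 rises was called there, with C3H/HeJ arrays only, with array weights or with the Gapdh ratio as a covariate. With arrays scaled to 1 median the median of all genes was 0.13, and 5 genes were called higher and 7 lower, with 11 of the 17 among them.

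The controls place these levels. At 3 weeks 257 genes differed from the C3H/HeJ controls (2.83%), 158 of them higher and 99 lower; with the deposited scaling the split was 21 and 65, and with arrays scaled to 1 median 114 and 172. At 6 weeks 10 genes differed (0.11%), each of them higher, and 419 had an unadjusted p under 0.05. These comparisons share the control arrays with each other and the treated arrays with the direct comparison, so their values are only set side by side. Lcn2 was above control by 2.23 at 3 weeks (SE 0.13, limma adjusted p = 5.03e-08) and by 0.55 at 6 weeks (SE 0.13, adjusted p = 0.348). Saa3 was above control by 2.61 (SE 0.32, adjusted p = 0.000185) and by 0.51 (SE 0.32, adjusted p = 1). Retnla went from 1.91 (SE 0.23) to 0.07 (SE 0.23) and Marco from 1.61 (SE 0.24) to 0.02 (SE 0.24). For Prickle1 the differences were −1.08 (SE 0.15, adjusted p = 0.000684) and −0.26 (SE 0.15, adjusted p = 1). Of the 17 genes 15 passed against control at 3 weeks, all but Tgm3 and Ccdc84, and none at 6 weeks. The 17 were picked on the same treated arrays, which favours such counts in advance, so the counts are no separate evidence.

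The genes above control at 6 weeks were others. Mmp12, the macrophage elastase that degrades elastin, was at 8.10 and 8.0 at 3 weeks, 8.61 and 8.45 at 6 weeks, and 5.16 and 4.49 in the controls. All 4 treated pools were far above both controls, and the 6 week pools were the highest. Its difference from control was 3.22 at 3 weeks (SE 0.48, limma adjusted p = 0.00116) and 3.70 at 6 weeks (SE 0.48, adjusted p = 0.00165), while the direct change of 0.48 (SE 0.48, adjusted p = 0.691) did not pass. Gpnmb, a glycoprotein of lipid-laden macrophages, was 1.64 (SE 0.19) and 1.46 (SE 0.19) above control, and Trem2, a lipid receptor of macrophages, 2.66 (SE 0.29) and 1.98 (SE 0.29). The collagen-degrading protease Ctsk was 1.60 and 1.30 above control, the p53 targets Psrc1 and Phlda3 2.73 and 1.70, and 1.19 and 0.82, and the interferon-induced sensor of double-stranded RNA Oas3 2.45 and 1.60. Npy, a neuropeptide, was 1.72 and 1.87 above control and Otud7a, a deubiquitinase, 1.64 and 1.73. Rgs5, a regulator of G protein signals in pericytes, was 0.21 above control at 3 weeks (adjusted p = 0.597) and 1.05 at 6 weeks (adjusted p = 0.0186). None of these 10 genes passed in the direct comparison, where their changes ran from −1.03 (Psrc1) to 0.84 (Rgs5, adjusted p = 0.072).

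**Figure D2:**
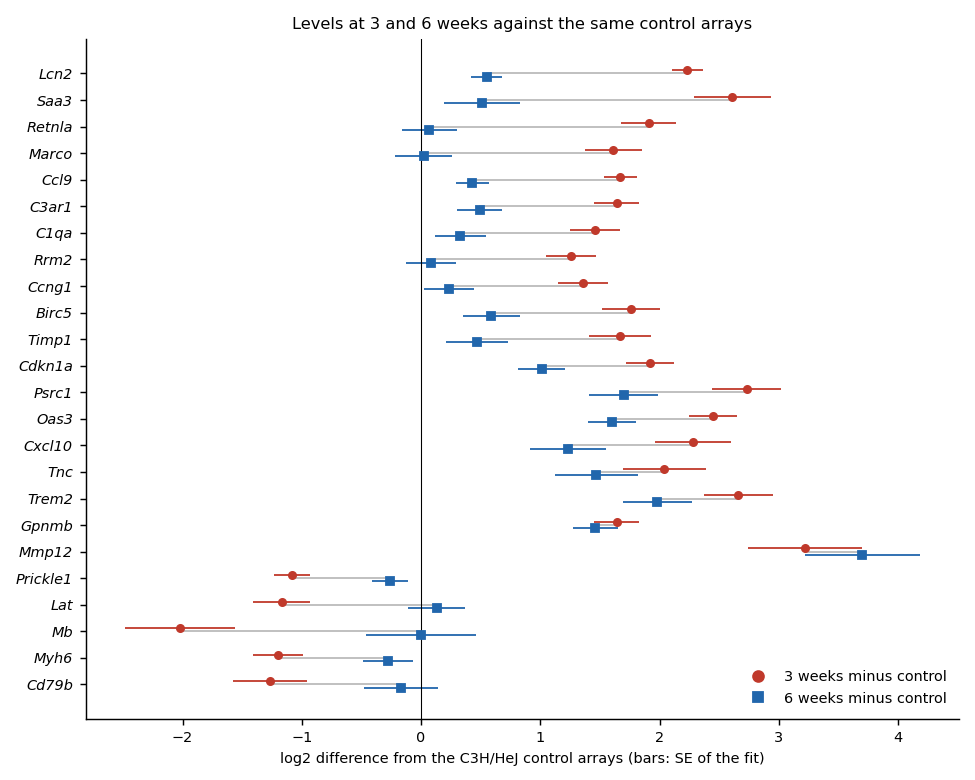
Log2 difference from the C3H/HeJ control arrays (x axis) at 3 weeks (red circles) and 6 weeks (blue squares) for 24 named genes, with bars of 1 SE of the fit; both series use the same 2 control arrays. Lcn2 goes from 2.23 to 0.55, whereas Mmp12 is at 3.22 and 3.70, and Prickle1 goes from −1.08 to −0.26.

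Other genes were read through 28 lists of pathways and cell types. A list is described by how many of its tested genes were called and by its median change, beside 0.05 for all genes. No list was tested as a set. At an unadjusted limma p under 0.05, 8.53% of all genes were higher and 5.18% lower. The counts of each list are to be read against these shares. The lowest medians belonged to the complement and acute phase list (−0.50), the cell cycle list (−0.40) and the chemokine list (−0.38), and the highest to the heart and skeletal muscle list (0.45) and the B and plasma cell list (0.40). These 5 kept their sign under the 16 alternative settings tried, but single arrays moved some of them. Without the female 3 week array the muscle median was 0.22 and the B cell median 0.23, and without the male 3 week array the muscle median was 0.74. Without the male 6 week array the complement median was −0.32 and the chemokine median −0.18.

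**Figure D3:**
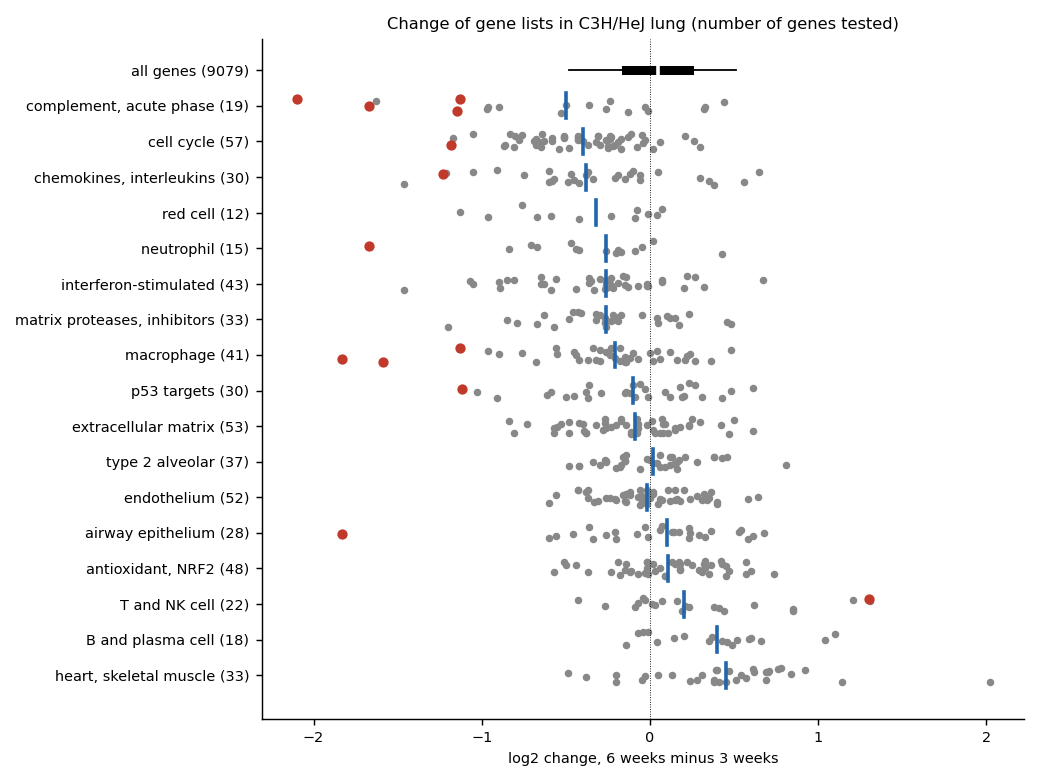
Log2 change from 3 to 6 weeks (x axis) of the tested genes of 17 lists (rows, number of genes in brackets), with called genes in red, other genes in grey and the list's median as a blue bar; the black bar at the top gives the middle of all 9079 genes (5th, 25th, 50th, 75th and 95th percentiles). The complement list has its median at −0.50 and the muscle list at 0.45, against 0.05 for all genes.

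Of the 19 complement, acute phase and iron-binding genes tested, 4 fell (Saa3, Lcn2, C3ar1 and C1qa) and none rose. At an unadjusted p under 0.05, 10 were lower and 1 higher, and 11 had both 6 week pools below both 3 week pools (57.9%, against 15.5% of all genes). The list's median was 0.68 above control at 3 weeks and 0.32 at 6 weeks. The list held 32 genes, of which 13 were dim or had no probe set of their own and were not tested.

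Of 41 macrophage markers 3 fell (Retnla, Marco and C1qa) and none rose, 10 were lower and none higher at an unadjusted p under 0.05, and the median was −0.21. Both 6 week pools were below both 3 week pools in 18 (43.9%, against 15.5% of all genes) and above them in 6 (14.6%, against 24.4%). That median turned to 0.10 with the deposited scaling, below the 0.28 of all genes there. None of the 3 markers used to check for macrophages was called. Cd68, a lysosomal glycoprotein, was at 9.97 and 9.53 at 3 weeks and at 9.31 and 9.69 at 6 weeks, and Csf1r, the receptor that keeps macrophages alive, at 10.84 and 10.75 and at 10.98 and 10.85. The stages overlapped for Cd68, and for Csf1r the 6 week pools were slightly higher. Adgre1, the surface receptor F4/80, was at 8.79 and 8.67 and then at 8.44 and 8.18, so here both 6 week pools were lower. The median of the list was 0.60 above control at 3 weeks and 0.35 at 6 weeks. Of 15 neutrophil markers 1 fell, Lcn2, and the median was −0.26. At an unadjusted limma p under 0.05, 5 were lower (33.3%, against 5.18% of all genes) and none higher. S100a8, an abundant neutrophil calcium-binding protein, was at 10.83 and 11.00 at 3 weeks and at 10.64 and 10.35 at 6 weeks, with the controls at 10.12 and 9.14. The acute phase glycoprotein Lrg1 was at −0.84 (SE 0.23, adjusted p = 0.137) and the neutrophil collagenase Mmp8 at −0.67 (SE 0.23, adjusted p = 0.219).

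Of 30 chemokines, interleukins and receptors tested 1 fell, Ccl9. At an unadjusted limma p under 0.05, 12 were lower (40%, against 5.18% of all genes) and 1 higher (3.33%, against 8.53%). Ccl8, a monocyte attractant, was at 9.61 and 8.95 at 3 weeks, 8.54 and 8.19 at 6 weeks, and 7.66 and 7.60 in the controls. All 3 groups were apart, in that order, but the change of −0.91 did not pass (SE 0.21, limma adjusted p = 0.0825). Cxcl10, an interferon-induced attractant of T cells, was at 6.75 and 6.71, then 5.59 and 5.77, with the controls at 4.41 and 4.49. Its 6 week pools also lay between the others; the change was −1.05 (SE 0.32, adjusted p = 0.182), and the difference from control was 2.28 at 3 weeks (adjusted p = 0.000721) and 1.23 at 6 weeks (adjusted p = 0.411). None of the 43 interferon-stimulated genes was called, and the median was −0.26, which turned to 0.05 with the deposited scaling. At an unadjusted limma p under 0.05, 12 were lower (27.9%, against 5.18% of all genes) and none higher. Oas3 was at 7.80 and 7.70, then 6.81 and 6.99, with the controls at 5.21 and 5.38. Its change was −0.85 (SE 0.20, adjusted p = 0.0972). The interferon regulator Irf7 was at −0.81 (SE 0.22, adjusted p = 0.137). None of 24 genes of antigen presentation was called, and their median was 0.04. At an unadjusted limma p under 0.05, 2 were lower (8.33%, against 5.18% of all genes) and none higher.

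The cell cycle list had 57 tested genes, of which 1 fell, Rrm2. At an unadjusted p under 0.05, 22 were lower and none higher, and 40 had both 6 week pools below both 3 week pools (70.2%, against 15.5% of all genes). The median of the list was 0.56 above control at 3 weeks and 0.19 at 6 weeks. Birc5, the mitotic survival protein survivin, was at 7.32 and 7.5 at 3 weeks, 6.04 and 6.44 at 6 weeks, and 5.59 and 5.71 in the controls; its change of −1.17 just missed the threshold (SE 0.24, limma adjusted p = 0.0578). Mki67, the nuclear protein of dividing cells used as a proliferation marker, was at 7.65 and 7.53, then 6.49 and 6.97, with the controls at 6.12 and 6.48. Its change was −0.86 (SE 0.27, adjusted p = 0.198). Top2a, the topoisomerase that untangles chromosomes, was at 7.75 and 8.01, then 7.34 and 7.32, with the controls at 6.62 and 6.85, a change of −0.54 (SE 0.20, adjusted p = 0.248). In these 3 genes the 6 week pools lay below the 3 week pools in both sexes, and in Mki67 the male 6 week pool was at the level of the female control. Rrm1, the large subunit of ribonucleotide reductase, was at −0.68 (SE 0.16, adjusted p = 0.0947).

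Genes that are active in dividing cells often carry CCAAT boxes, bound by NF-Y, and in those of late cell cycle the element TTTGAA, bound by MuvB complexes. The promoters of 3 members are shown because they share a direction and differ in these elements. Each covers 300 bases around the start of the gene in RefSeq's GRCm38.p6 table, mostly before it, 5′ to 3′ on the gene's strand, and capitals mark CCAAT or TTTGAA on either strand (ATTGG and TTCAAA on the other). Rrm2 is at chr12:24708004-24708303 (plus strand), Mki67 at chr7:135716330-135716629 (minus) and Top2a at chr11:99024140-99024439 (minus).
Rrm2: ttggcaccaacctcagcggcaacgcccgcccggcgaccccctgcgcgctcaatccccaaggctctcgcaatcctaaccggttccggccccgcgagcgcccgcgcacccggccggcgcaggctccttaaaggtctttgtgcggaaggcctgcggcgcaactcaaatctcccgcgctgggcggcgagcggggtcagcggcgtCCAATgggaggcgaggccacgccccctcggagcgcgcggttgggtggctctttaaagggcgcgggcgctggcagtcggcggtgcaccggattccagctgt
Mki67: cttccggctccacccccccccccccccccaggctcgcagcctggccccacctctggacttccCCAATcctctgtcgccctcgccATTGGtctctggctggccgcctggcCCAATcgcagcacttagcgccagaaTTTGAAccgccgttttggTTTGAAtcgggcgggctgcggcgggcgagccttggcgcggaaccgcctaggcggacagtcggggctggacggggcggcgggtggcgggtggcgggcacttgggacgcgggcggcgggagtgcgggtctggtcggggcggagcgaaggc
Top2a: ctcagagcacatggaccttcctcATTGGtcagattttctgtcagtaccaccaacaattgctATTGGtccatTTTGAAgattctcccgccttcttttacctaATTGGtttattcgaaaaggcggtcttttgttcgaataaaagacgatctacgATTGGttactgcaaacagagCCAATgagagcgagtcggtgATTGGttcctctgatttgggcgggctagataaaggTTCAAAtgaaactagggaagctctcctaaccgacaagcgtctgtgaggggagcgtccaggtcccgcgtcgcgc

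The Rrm2 promoter held 1 CCAAT and no TTTGAA, that of Mki67 held 3 and 2, and that of Top2a 6 and 2. The Rrm1 promoter held 2 CCAAT and no TTTGAA, and that of Birc5 neither in this window. Of 48 tested cell cycle genes whose promoter was found, 33 held CCAAT (68.8%) and 25 TTTGAA (52.1%). Of all 32851 promoters of this length 37.4% held CCAAT and 17.9% TTTGAA. A match of letters is a description and not a binding site.

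Among 30 tested p53 targets 1 fell, Ccng1, and the median was −0.10, or 0.15 with the deposited scaling. At an unadjusted limma p under 0.05, 9 were lower (30%, against 5.18% of all genes) and 3 higher (10%, against 8.53%). Cdkn1a, the inhibitor p21 that halts the cell cycle, was at 9.93 and 10.78 at 3 weeks, 9.38 and 9.50 at 6 weeks, and 8.30 and 8.56 in the controls. The stages were apart and the controls lowest. The change was −0.91 (SE 0.20, limma adjusted p = 0.0825). Psrc1, a microtubule protein, was at 8.28 and 8.04, then 7.36 and 6.89, with the controls at 6.01 and 4.86, a change of −1.03 (SE 0.29, adjusted p = 0.153). Blmh, the hydrolase that inactivates bleomycin, was at −0.01 (SE 0.18, adjusted p = 0.989).

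Matrix genes showed no call. The median of the 53 tested was −0.09, or 0.20 with the deposited scaling. At an unadjusted limma p under 0.05, 9 were lower (17%, against 5.18% of all genes) and 3 higher (5.66%, against 8.53%). Col1a2, a chain of type I collagen, the main fibre of scar, was at 11.36 and 11.27 at 3 weeks, 10.86 and 10.67 at 6 weeks, and 10.27 and 10.48 in the controls. The 6 week pools lay between, and the change of −0.55 did not pass (SE 0.11, limma adjusted p = 0.0591). Its partner Col1a1 was at 9.75 and 9.84, then 9.32 and 8.80, with the controls at 8.52 and 8.57; the change was −0.73 (SE 0.23, adjusted p = 0.203). Col3a1, the collagen of fine fibres, was at −0.42 (SE 0.18, adjusted p = 0.32) and fibronectin, Fn1, at −0.48 (SE 0.18, adjusted p = 0.245). Tnc, tenascin C, a matrix protein of wounds, was at 7.82 and 7.94, then 7.14 and 7.49, with the controls at 5.90 and 5.79. Both stages of Tnc were well above the controls, by 2.04 (adjusted p = 0.00407) and 1.47 (adjusted p = 0.348). Eln, elastin, was at −0.84 (SE 0.29, adjusted p = 0.225) by its brightest probe set and at −2.67 by another. Tgfbi, an adhesion protein induced by TGF-beta, was at −0.57 (SE 0.15, adjusted p = 0.137).

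None of the 33 proteases and inhibitors was called, and the median was −0.26, or 0.07 with the deposited scaling. At an unadjusted limma p under 0.05, 9 were lower (27.3%, against 5.18% of all genes) and 1 higher (3.03%, against 8.53%). Timp1, the inhibitor of metalloproteases, was at 8.99 and 8.42, then 7.61 and 7.41, with the controls at 6.95 and 7.12. The 6 week pools lay between the others, and the change was −1.20 (SE 0.26, limma adjusted p = 0.0801). The lysosomal proteases Ctsb and Ctsl were at −0.48 (SE 0.11, adjusted p = 0.0825) and −0.43 (SE 0.13, adjusted p = 0.166), and other probe sets of Ctsb ran from −0.69 to 0.25. No gene of the TGF-beta and BMP list (38 tested, median −0.06) or of the contractile list (21 tested, median 0.03) was called; at an unadjusted limma p under 0.05 the first had 4 higher and 3 lower and the second 3 and 3. Tgfb1, the main fibrogenic cytokine, was at 8.91 and 9.40 at 3 weeks and at 8.96 and 8.28 at 6 weeks. Its pools moved apart, with 0.05 in males and −1.12 in females, and the mean change was −0.54 (SE 0.25, adjusted p = 0.364). Bmp6, a BMP ligand, was at 0.68 (SE 0.17, adjusted p = 0.122) and Bambi, a decoy receptor, at 0.61 (SE 0.20, adjusted p = 0.213). Myh11, the myosin of smooth muscle, was at 0.73 (SE 0.23, adjusted p = 0.201), and Pdgfra, a growth factor receptor of fibroblasts, at 0.57 by its brightest probe set and at −0.41 by another. Actn1, of the contractile list, went the other way, at −0.43 (SE 0.15, adjusted p = 0.225), and its other probe sets gave −0.71 to −0.63.

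The medians of both lymphocyte lists were above that of all genes, but that of the T and NK list only barely under other scalings. Of 22 T and NK cell markers 1 rose, Lat, and the median was 0.20. It was 0.07 in males and 0.56 in females, against 0 and 0.09 for all genes. With the deposited scaling it was 0.30, against 0.28 for all genes, and with arrays scaled to 1 median 0.16, against 0.13. At an unadjusted limma p under 0.05, 5 were higher (22.7%, against 8.53% of all genes) and none lower. Txk, a T cell kinase, was at 4.50 and 5.75, then 6.54 and 6.32, with the controls at 6.34 and 6.29. The male 3 week pool was the lowest, and the change of 1.31 did not pass (SE 0.36, limma adjusted p = 0.153). Cd3d, a chain of the T cell receptor complex, overlapped between the stages (5.67 and 4.87, then 5.64 and 6.60). Of 18 B and plasma cell markers none was called, 5 were higher and none lower at an unadjusted p under 0.05, and 10 had both 6 week pools above both 3 week pools (55.6%, against 24.4% of all genes). Cd79b, part of the B cell receptor, was at 6.87 and 6.43, then 7.71 and 7.79, with the controls at 7.97 and 7.88. Igha, the heavy chain of IgA, was at 10.07 and 9.62, then 11.12 and 10.65, with the controls at 10.82 and 10.38. In both genes the 6 week pools lay near the controls, and the changes were 1.10 (SE 0.31, adjusted p = 0.153) and 1.04 (SE 0.26, adjusted p = 0.123). The other probe sets of Igha gave smaller rises, 0.31 to 0.60. Ighm, the heavy chain of IgM, was at −0.07 (SE 0.42, adjusted p = 0.968).

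Of the 33 tested genes of the heart and skeletal muscle list none was called. At an unadjusted limma p under 0.05, 13 were higher (39.4%, against 8.53% of all genes) and none lower. The mean log2 level of the list was 7.64 and 7.18 at 3 weeks, 7.88 and 7.82 at 6 weeks, and 7.82 and 7.97 in the controls. Mb, the oxygen store of muscle, was at 8.01 and 5.89 at 3 weeks and at 8.94 and 9.0 at 6 weeks, with the controls at 8.89 and 9.04. The female 3 week pool was far below all others, and the change of 2.02 did not pass (SE 0.46, limma adjusted p = 0.0825). Myh6, a myosin of heart muscle, was at 7.62 and 7.46, then 8.46 and 8.45, with the controls at 8.60 and 8.87. Its change was 0.92 (SE 0.21, adjusted p = 0.0825). Acta1, the actin of skeletal muscle, behaved otherwise: it was at 8.99 in the female 6 week pool, against 5.28 to 7.74 in the other 5, and Ckm was highest in the same pool at 8.29. The part of muscle tissue in these values was not tested.

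Among 37 genes of the type 2 alveolar cells, which make surfactant, and 25 of the flat type 1 cells, none was called, and the medians were 0.02 and 0.10; at an unadjusted limma p under 0.05 there were 3 higher and 2 lower, and 3 higher and 1 lower. Sftpc was at 12.79 and 12.74 at 3 weeks and at 12.76 and 12.72 at 6 weeks, near the upper end of the scale, where normalization leaves little room for change. Rtkn2, a type 1 cell gene, was at 7.65 and 7.83, then 8.52 and 8.38, with the controls at 8.59 and 8.49, a change of 0.71 (SE 0.20, limma adjusted p = 0.153). Krt18, also of the type 1 list, went the other way, at −0.50 (SE 0.17, adjusted p = 0.216). Of 28 airway genes 1 fell, Retnla, which is also in the macrophage list, and the median was 0.10. At an unadjusted limma p under 0.05, 6 were higher (21.4%, against 8.53% of all genes) and 3 lower (10.7%, against 5.18%). Both 6 week pools were above both 3 week pools in 12 (42.9%, against 24.4% of all genes). They were below them in 6 (21.4%, against 15.5%), so the shares were above those of all genes in both directions. Foxa1, a transcription factor of airway cells, was at 0.61 (SE 0.16, adjusted p = 0.123) and Tppp3, a gene of ciliated cells, at 0.54 (SE 0.13, adjusted p = 0.0947). None of 52 endothelial genes was called, and their median was −0.02. At an unadjusted limma p under 0.05, 5 were higher (9.62%, against 8.53% of all genes) and 4 lower (7.69%, against 5.18%). Emcn, a capillary sialomucin, was at 0.58 (SE 0.18, adjusted p = 0.189). Ace, the angiotensin-converting enzyme of capillaries, gave 0.03 in males and −1.15 in females.

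The same stages in A/J mice share no array with those of C3H/HeJ. There 2 genes passed (0.022%; 431 at an unadjusted p under 0.05), both lower at 6 weeks, and both among the 17 called in C3H/HeJ. Marco was at 7.57 and 7.53 in the A/J male and at 8.25 and 7.74 in the female pools at 3 weeks, and at 4.88 and 5.70 at 6 weeks, with the controls at 6.58 and 7.30. In A/J its 6 week pools lay below the controls, and it fell by 2.48 (SE 0.21, limma adjusted p = 1.05e-05), against 1.59 in C3H/HeJ. Lcn2 was at 10.64, 10.63, 10.74 and 10.77 in the A/J pools at 3 weeks and at 9.76 and 9.64 at 6 weeks, with the controls at 8.33 and 8.72. It fell by 0.99 (SE 0.12, adjusted p = 0.00062), against 1.67 in C3H/HeJ. Saa3 at −1.57 (SE 0.27) and Pttg1 at −0.72 (SE 0.13) each missed the threshold in A/J with an adjusted p of 0.0573.

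The difference between the strains in the change was called for no gene (0%), with 542 genes at an unadjusted p under 0.05 in limma. Retnla fell by 1.83 in C3H/HeJ and gave −0.37 in A/J (SE 0.20); the difference of −1.46 had a small p but did not pass (SE 0.30, adjusted p = 0.506). In A/J it was at 10.54 to 11.23 at 3 weeks and at 10.34 and 10.62 at 6 weeks, so the stages overlapped there. Of the genes with the smallest p for this difference, Fndc3a gave 0.83 in C3H/HeJ and −0.37 in A/J, Pstpip2, an adaptor that restrains inflammation, 1.01 and −0.73, and Ldhb, a lactate dehydrogenase subunit, 0.49 and −0.29. Mat1a, which makes the methyl donor S-adenosylmethionine, gave −0.97 and 0.29. For each of these the adjusted p was 0.506. The list medians in A/J were −0.04 for the cell cycle, −0.09 for complement and −0.07 for chemokines, against −0.40, −0.50 and −0.38 in C3H/HeJ, and 0.24 for both the muscle and the B cell list, against 0.45 and 0.40; the differences between these medians were not tested.

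**Figure D4:**
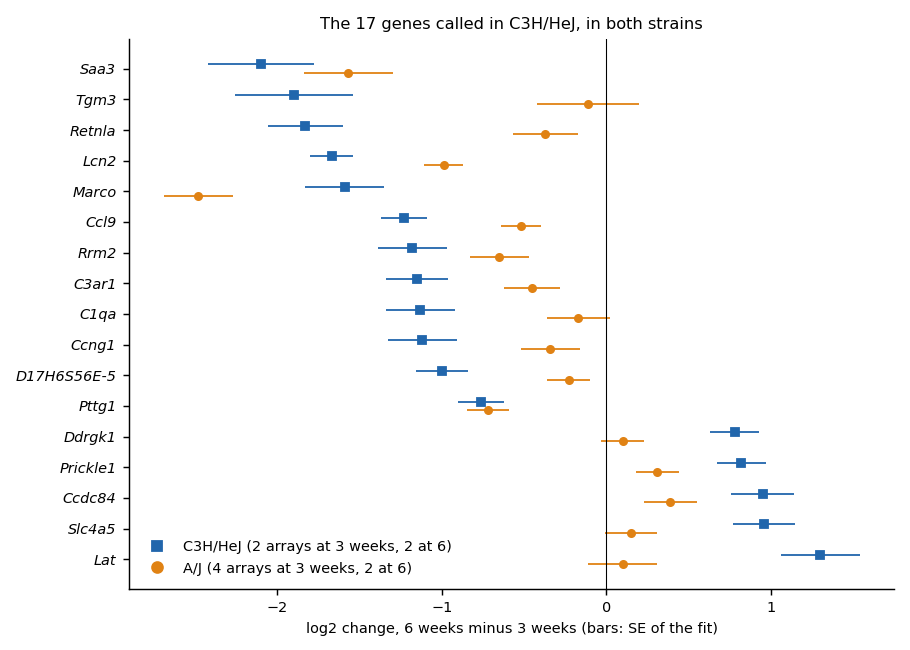
Log2 change from 3 to 6 weeks (x axis) of the 17 genes called in C3H/HeJ (rows), in C3H/HeJ (blue squares) and in A/J (orange circles), with bars of 1 SE of the fit. Marco is lower in A/J (−2.48 against −1.59) and Retnla nearer to 0 there (−0.37 against −1.83), and no difference between the strains passed.

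The male and female pools were compared as well, with 1 array per sex and stage. This difference has no replicate within C3H/HeJ, and its p-values assume that the lone arrays vary like those of the other groups. The change differed between them for 2 genes (0.022%), with 910 genes at an unadjusted limma p under 0.05. Arf5, a small GTPase of the Golgi, was at 7.15 and 7.12 in the male pools at 3 and 6 weeks and at 7.88 and 4.56 in the female pools, with the controls at 6.92 and 7.17. The female 6 week pool alone was low, and the female change minus the male change was −3.29 (SE 0.34, adjusted p = 0.000669). Nop56, a nucleolar protein that guides modification of ribosomal RNA, was at 7.58 and 7.17 in males and at 5.14 and 7.31 in females, with the controls at 7.32 and 7.44. Here the female 3 week pool alone was low, and the difference in change was 2.59 (SE 0.32, adjusted p = 0.00338). Over both sexes its change was 0.88 by the brightest probe set and −0.37 by another. Each rests on 1 array, and with the Gapdh ratio as a covariate neither passed. The 17 called genes moved in the same direction in both sexes: Saa3 gave −2.05 in males and −2.14 in females, Lcn2 −1.68 and −1.66, Retnla −1.85 and −1.81, and Ccl9 −1.38 and −1.09. The sexes differed most, among these, for Marco (−1.94 and −1.23) and Lat (1.63 and 0.97), with adjusted p-values of 0.638 and 0.64.

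**Figure D5:**
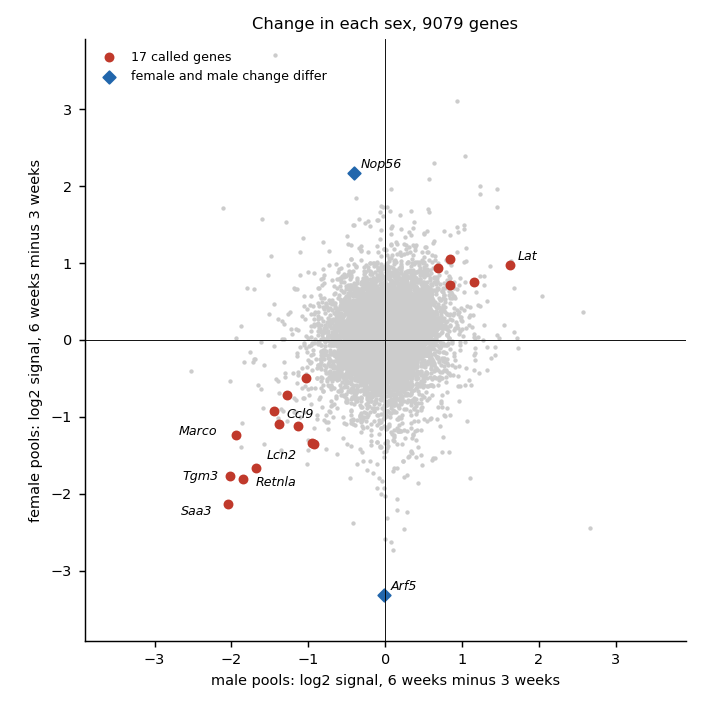
Log2 signal at 6 weeks minus that at 3 weeks in the female pools (y axis) against the male pools (x axis), 1 grey point per gene for 9079 genes, with the 17 called genes in red and the 2 genes whose change differed between the sexes as blue diamonds. Lcn2 lies at −1.68 and −1.66, whereas Arf5 lies at −0.02 in males and −3.32 in females.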

How the data were processed

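Lung RNA of several mice was pooled per array, after Trizol extraction and with standard Affymetrix labelling, per the labels' protocols. The authors deposited 1 intensity per probe set and array, on a linear scale; which software made it was not given in the sources used here. From the 22690 probe sets 64 controls were removed. Quantile normalization was followed by log2 of the value plus 16. A mean over the 21 arrays in the lowest 33.3 percent removed a probe set. Symbols came from the array annotation (20380 probe sets had exactly 1, 691 several and 1555 none), and the brightest probe set of a gene was used, which gave 9079 genes. In R 4.3.3 with limma 3.58.1, all 21 arrays entered 1 model of 10 group means plus sex (lmFit, contrasts.fit, eBayes with trend; 10 residual degrees of freedom, 16.9 after shrinkage; two-sided tests). The difference between the sexes used 2 further terms. The median SE of a change was 0.198, limited by the number of arrays. The procedure was tested on simulated data. No pair of arrays shared more than 0.591% of its values.

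The called genes of the direct comparison were all named, with the 3 of smallest p among higher genes that did not pass. Others came from the 3 members of smallest p of each of 28 lists and from 30 genes given beforehand. The 5 of smallest p for each difference between strains or sexes were a further source. Not every gene of these sets is described. Cell markers are given as checks. The 10 genes called against control at 6 weeks are all named, but only some of the 257 called at 3 weeks. The comparison, members and lists were chosen with earlier results of these data known. Alternatives were other scalings, offsets, filters, covariates, weights and array sets.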

Additional observations from a re-analysis of the deposited data

Results flagged for a closer look

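The test of the difference between female and male pools picked out 2 genes, Arf5 (−3.29 in log2, female change minus male change) and Nop56 (2.59). For Arf5 the value rested on the female 6 week pool, at 4.56 against 6.92 to 7.88 on the other 5 C3H/HeJ arrays. For Nop56 it rested on the female 3 week pool, at 5.14 against 7.17 to 7.58 on the others. Another probe set of Nop56 gave a change of −0.37 over both sexes, against 0.88 by the brightest.

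The control probe sets of Gapdh, which no comparison between genes used, gave a ratio of 3′ to 5′ signal of 1.07 in the male and 2.08 in the female pool at 6 weeks, above the 1.04 and 0.917 of the C3H/HeJ controls. The ratio of the female pool was the highest of the 21 arrays. Its part in the changes of single genes was not tested beyond the fit with the ratio as a covariate.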

How the results depend on the processing

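The 17 called genes kept their direction under each of the 16 alternatives that tested them (15 for Ccdc84, Tgm3 and Marco, which the filter on the lower 50 percent removed), and Lcn2 was called under each. Of the direct comparison's 17 calls the number went to 56 at an adjusted p under 0.10, 7 with the deposited scaling, 8 without the dim filter, 3 with C3H/HeJ arrays only, 11 with every probe set, 4 with array weights and 6 with the Gapdh ratio as a covariate, and ran from 8 to 43 when 1 array was left out. The comparison of 3 weeks with control went from 257 to 425, 86 and 125 at an adjusted p under 0.10, with the deposited scaling and with C3H/HeJ arrays only, and ran from 68 to 221 without 1 array. That of 6 weeks with control went from 10 to 1 with C3H/HeJ arrays only and ran from 6 to 14. The A/J comparison gave 4 calls at an adjusted p under 0.10, without the sex term, with A/J and C3H/HeJ arrays only and with array weights, and 1 with the lower 50 percent left out. The difference between strains gave 0 to 3 calls without 1 array, and that between sexes 0 with the Gapdh ratio. Some of these settings also changed the number of arrays or of genes tested. The cause of the differences in calls was not tested. No paired analysis was run. The labels give no replicate numbers and each pool holds other mice, so C3H/HeJ pools match between stages only by sex and dose. The sex term of the model is 1 effect common to all strains and does not match the doses of A/J. Without it 18 genes were called.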

Other observations

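Of 48 antioxidant, glutathione and NRF2 target genes none was called, and the median was 0.11 (0.00 in males, 0.19 in females), against 0.05 for all genes. At an unadjusted limma p under 0.05, 12 were higher (25%, against 8.53% of all genes) and 2 lower (4.17%, against 5.18%). Sod1, the cytosolic superoxide dismutase, was at 10.97 and 10.36 at 3 weeks and at 11.04 and 11.44 at 6 weeks, a change of 0.57 by its brightest probe set and −0.20 by another. Abcc1, an exporter of glutathione conjugates, was at 0.74 and −0.37 by its 2 probe sets. Me1, which supplies NADPH, was at −0.51 (SE 0.14, limma adjusted p = 0.153). Fabp1, a fatty acid carrier, was at 5.63 and 5.52, then 6.58 and 6.93, with the controls at 7.14 and 7.16; both stages lay below the controls, and the change was 1.18 (SE 0.31, adjusted p = 0.137).

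Of 12 red cell genes none was called, and their median was −0.32. At an unadjusted limma p under 0.05, 4 were lower (33.3%, against 5.18% of all genes) and none higher. Bpgm, which makes the regulator of oxygen release from haemoglobin, was at 9.04 and 8.65 at 3 weeks and at 7.42 and 8.01 at 6 weeks, with the controls at 8.43 and 7.93, a change of −1.13 (SE 0.28, adjusted p = 0.122). The part of blood in these values was not tested. No gene was called among 29 for bleomycin inactivation and DNA break repair (median 0.11; 4 higher and 1 lower at an unadjusted limma p under 0.05), 17 of the clock (0.20; 2 and 0) or 41 immediate early and heat shock genes (0.00; 0 and 1). None was called among 20 genes of adipocytes (−0.06; 1 and 1), 6 of mast cells and eosinophils (0.02; 0 and 0) or 11 of mesothelium (0.04; 0 and 0). Of 28 glucocorticoid and fasting genes 1 fell, Lcn2, and 4 were higher and 4 lower at an unadjusted limma p under 0.05. Tdp1, which frees DNA ends at breaks, was at 0.70 (SE 0.20, adjusted p = 0.153).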
